A study of Mus musculus with 2 samples.

Results

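Elf3, Klf4, Tfap2a and Tfap2b encode transcription factors of the skin epithelium, and their transcripts were taken from a Xenium data set of mouse skin. Xenium reads out by imaging where individual transcripts of a gene panel lie in sliced tissue. The 4 genes were selected by name from the 480 genes of a custom panel, and transcripts with a quality score of at least 20 were counted. Elf3 is an ETS-family factor found in epithelia. Klf4 is a zinc finger factor required for the skin barrier of the mouse. Tfap2a and Tfap2b belong to the AP-2 family, which acts in epidermis, neural crest and hair follicle. In the epidermis, keratinocytes leave the basal layer, pass through the suprabasal layer and reach the granular layer, where they make loricrin, filaggrins and the lipids of the barrier, and hair follicles and sebaceous glands are continuous with this sheet.

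There were 2 sections of fixed, paraffin-embedded whole skin, each 5 µm thick, from B6/129 females. The Utx-cKO section comes from skin in which Krt14-Cre, active in keratin-14 expressing tissues, had deleted Kdm6a (Utx), a histone demethylase, and the other section is the WT control. The labels give no age, no body site and no number of animals. With 1 section per group there is no replicate, so no difference was tested, and every interval below is exact, at the 95% level, and covers the error of counting, which leaves out differences between animals, blocks and slides.

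Cells with at least 20 transcripts numbered 37395 in Utx-cKO (median 48 transcripts per cell) and 33263 in WT (median 62). They were clustered without the 4 genes, so that no class rests on them, and 11 clusters (E0 to E10, 18746 cells in Utx-cKO and 14572 in WT) were epithelial by their keratinocyte markers. By markers they included basal (E4), suprabasal (E1) and granular (E2) keratinocyte-like cells, lower hair follicle-like cells (E0), sebocyte-like cells (E6) and 2 upper hair follicle-like clusters. Of these, E5 was led by Sprr1a, Rbp2, Krt79 and Cldn4, and E3 by Sostdc1, Gata6 and Krt79, with the proliferation genes Mki67 and Top2a also among its 10 leading genes. E4 had the envelope genes Tgm3 and Sprr2a2 and the T cell genes Cd3g and Cd3e among its leading genes beside the basal genes Itga6, Krt5 and Col17a1. The others are called by leading genes: E7 (Elovl7, Cers5, Cidea), E8 (Serpinb11, Ptgds, Krt6b), E9 (Dct, Pmel, Tbx1, Lhx2) and E10 (Krt17, Serpinb11, Lhx2). E9 met the marker count for melanocyte-like cells with Dct, Pmel and Mlana. It was left without a cell type name since the follicle genes Tbx1, Lhx2 and Lef1 also led it and keratinocyte markers made up 26.95% of its counts. Levels are CPM, the counts of a gene scaled to the total of panel transcripts in the same cells. They are not set against each other between genes, since the number and binding of probes per gene are not given. Kdm6a itself had 2226 CPM in Utx-cKO and 2781 CPM in WT over epithelial cells. Its log2 ratio of -0.32 (-0.39 to -0.25), short of 1.5-fold, does not by itself check the labels. Where on its transcript the probes lie, relative to the deleted part, is not given.

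Among the epithelial clusters, Klf4 was highest in granular keratinocyte-like cells and lowest in sebocyte-like cells of both sections. It had 9499 and 11026 CPM in granular, 8735 and 9512 CPM in suprabasal and 7014 and 8349 CPM in basal keratinocyte-like cells (Utx-cKO and WT, as in the other pairs of this paragraph). In the follicle it had 8424 and 8560.1 CPM in lower follicle-like cells, 5700.5 and 8490.4 CPM in upper follicle-like E5 and 4282 and 6251 CPM in upper follicle-like E3. Sebocyte-like cells held 624 and 1263 CPM, and the Elovl7 cluster E7 held 1233 and 1890.4 CPM. The remaining epithelial clusters had 9278 and 10259 CPM (E8), 5889 and 4875 CPM (E9) and 5174 and 7664 CPM (E10). The intervals of granular cells and E8 overlapped in each section, and those of E8 and suprabasal cells did too, while E7 and E6 stood apart from each other and from all other epithelial clusters in both sections.

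Tfap2a varied least across the epithelium, over a range of 3.02-fold in Utx-cKO and 3.30-fold in WT. Its highest level was in E9, the cluster led by the melanocyte genes Dct and Pmel, with 3438 and 2507 CPM in Utx-cKO and WT, and its lowest in granular keratinocyte-like cells, with 1137 and 761 CPM. Between them lay upper follicle-like E3 (2335 and 1858 CPM), E8 (2218 and 1655 CPM), upper follicle-like E5 (2020.2 and 1504 CPM) and lower follicle-like cells (1924 and 1649.8 CPM). Basal cells had 1876 and 1411 CPM, sebocyte-like cells 1659 and 1251 CPM, suprabasal cells 1505 and 1357 CPM, E7 1535 and 1096 CPM and E10 1606 and 1020.3 CPM. In WT the interval of every cluster overlapped that of the next in this gene's order. In Utx-cKO only E9, at the top, and granular cells, at the bottom, had intervals apart from their neighbour.

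Tfap2b had a steeper pattern than Tfap2a, and its high levels lay in lower follicle-like cells, E8 and E9. It had 7834 and 11273 CPM in E8, 6934 and 5061 CPM in E9 and 6147 and 7012 CPM in lower follicle-like cells (Utx-cKO and WT). These 3 clusters were the highest in both sections, with intervals above that of the fourth, E10, at 2957 and 2743 CPM. Basal cells followed with 2146 and 2009 CPM, sebocyte-like cells with 1757 and 2011 CPM, upper follicle-like E3 with 1861 and 1514 CPM and suprabasal cells with 1804 and 1466 CPM. The lowest levels were in E7 (1143 and 819 CPM), upper follicle-like E5 (947 and 694 CPM) and granular cells (869.7 and 734 CPM), whose intervals overlapped. The upper follicle-like clusters had lower Tfap2b than the lower follicle-like one, whereas for Tfap2a the intervals of neighbouring follicle clusters overlapped.

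Elf3 was sparse, and in WT few of its clusters could be told apart at this depth. Over epithelial cells it had 304 counts in Utx-cKO and 102 in WT. In Utx-cKO the highest levels were 924 CPM (95% interval 765 to 1107, 118 counts) in upper follicle-like E5 and 467 CPM (95% interval 360.4 to 595, 65 counts) in upper follicle-like E3. The other 9 epithelial clusters of Utx-cKO held 51.5 (sebocyte-like) to 204 CPM (E7), with intervals that overlapped from one cluster to the next. In WT the 11 clusters held 44.4 (lower follicle-like) to 167 CPM (upper follicle-like E3), and every interval overlapped the next. The interval of E3 (99.1 to 264) lay above that of lower follicle-like cells (17.9 to 91.5). Basal, suprabasal and granular cells had 105, 117 and 104 CPM in Utx-cKO, against 61.3, 81.9 and 62.9 CPM in WT.

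**Figure D1:**
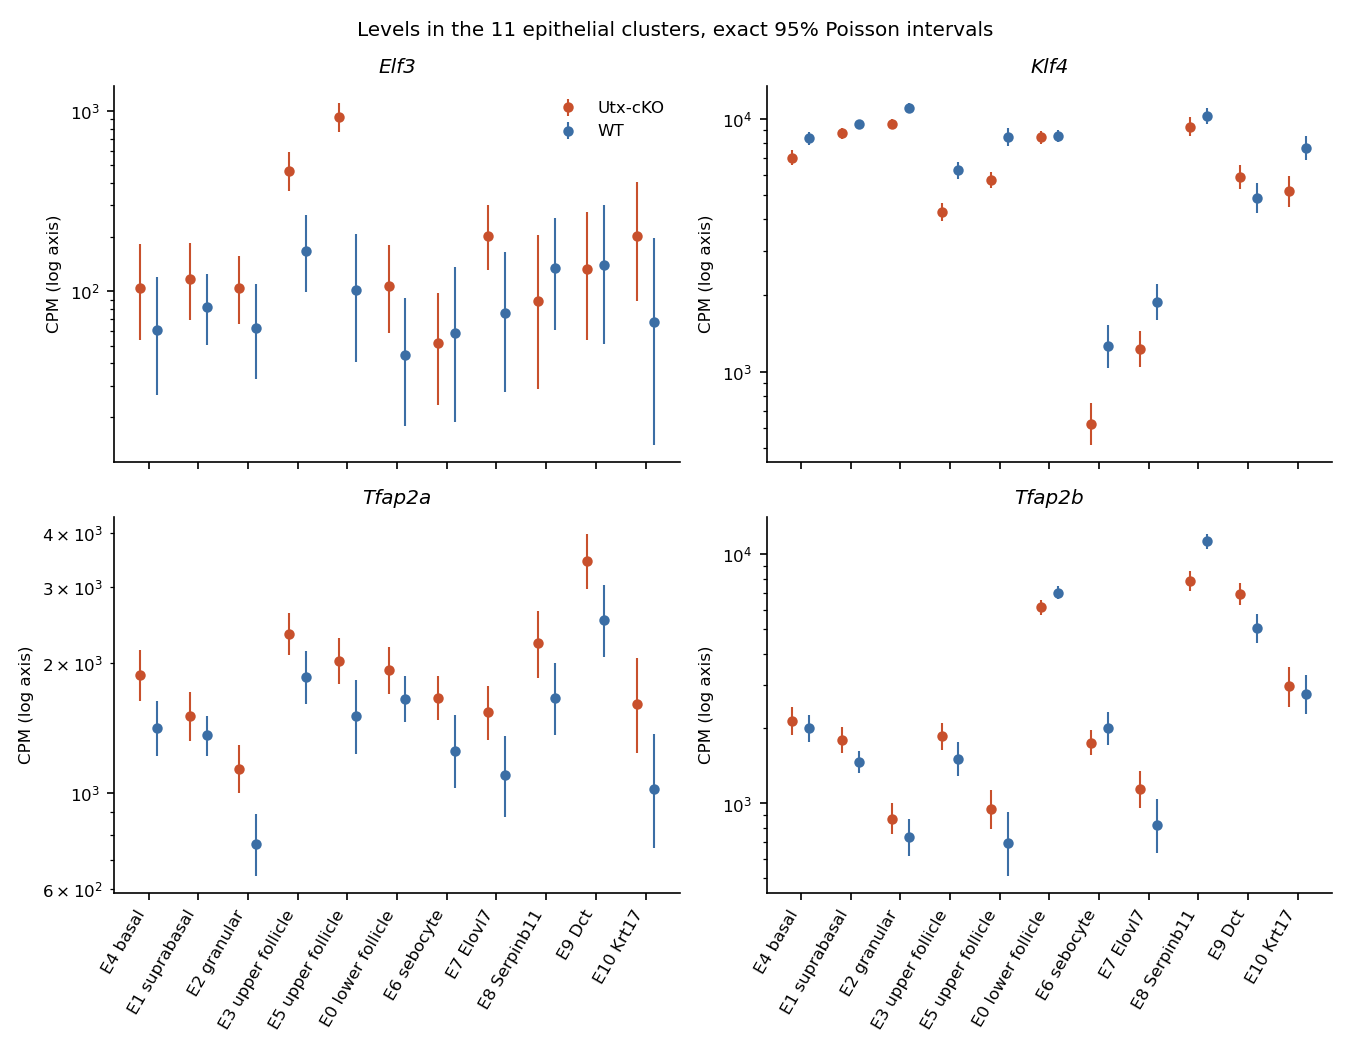
Level of each gene (CPM, log axis) in the 11 epithelial clusters, Utx-cKO in orange and WT in blue, with exact 95% Poisson intervals. Klf4 dips in E6 and E7, Tfap2b is highest in E8, E9 and E0, Tfap2a is lowest in granular cells, and Elf3 stands out in E5 and E3 of Utx-cKO.

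All 4 genes were also read outside the epithelium. Tfap2a had 1786 CPM in epithelial and 322 CPM in non-epithelial cells of Utx-cKO, against 1380.2 and 129 CPM in WT. Tfap2b had 2455 CPM in epithelial and 394 CPM in non-epithelial cells of Utx-cKO, against 2783 and 232 CPM in WT. Both AP-2 genes were thus mainly epithelial in each section. Klf4 was not: it had 5979 CPM in epithelial and 4354 CPM in non-epithelial cells of Utx-cKO, against 7907 and 6189.7 CPM in WT. Elf3 had 228 CPM in epithelial and 172 CPM in non-epithelial cells of Utx-cKO, against 82.9 and 103 CPM in WT, so in WT its level was no higher in the epithelium than outside it.

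Within the epidermis the layers were compared inside each section. Klf4 was higher in granular than in basal keratinocyte-like cells, by a log2 ratio of 0.44 (0.32 to 0.56) in Utx-cKO and 0.40 (0.30 to 0.51) in WT. Tfap2a was lower in granular cells, with -0.72 (-0.99 to -0.45) in Utx-cKO and -0.89 (-1.22 to -0.57) in WT. Tfap2b was lower as well, with -1.30 (-1.58 to -1.02) in Utx-cKO and -1.45 (-1.76 to -1.15) in WT. Past a rule of size of 1.5-fold, 2 of the 3 genes with at least 100 counts, Tfap2a and Tfap2b, were lower in granular cells of each section, and 51.5% of 260 panel genes in Utx-cKO and 52.7% of 258 in WT were so. None of the 3 was 1.5-fold higher, against 23.1% and 24.8% of panel genes in Utx-cKO and WT. For Elf3 the counts were 23 in granular and 12 in basal cells of Utx-cKO and 12 and 8 in WT, and the ratios were -0.01 (-1.07 to 1.13) and 0.04 (-1.37 to 1.53), too wide to show a layer difference of this size. Granular cells were deeper than basal cells (median 78 and 48 transcripts in Utx-cKO, 94 and 55 in WT), and as mean counts per cell the granular over basal log2 ratio of Tfap2a was -0.05 in Utx-cKO and -0.20 in WT, with intervals that held 0. On that scale Klf4 was past 1.5-fold higher in granular cells, with 1.11 in Utx-cKO and 1.09 in WT.

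The cells were also read by distance, where the first set is the granular cluster itself, so its step to the next restates the cluster comparison. In granular cells, and then in basal or suprabasal keratinocyte-like cells at 0 to 10, 10 to 20 and 20 to 30 µm from the nearest granular cell, Klf4 had 9499, 8069.9, 8149 and 7742 CPM in Utx-cKO, against 11026, 9348, 8967 and 9121 CPM in WT. Tfap2a had 1137, 1645, 1729.8 and 1434 CPM in Utx-cKO, against 761, 1308, 1427 and 1291 CPM in WT. Tfap2b had 869.7, 2028, 1787 and 1505 CPM in Utx-cKO, against 734, 1759, 1482 and 1668 CPM in WT. Among basal and suprabasal cells the intervals of neighbouring distances overlapped up to 30 µm for each gene.

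**Figure D2:**
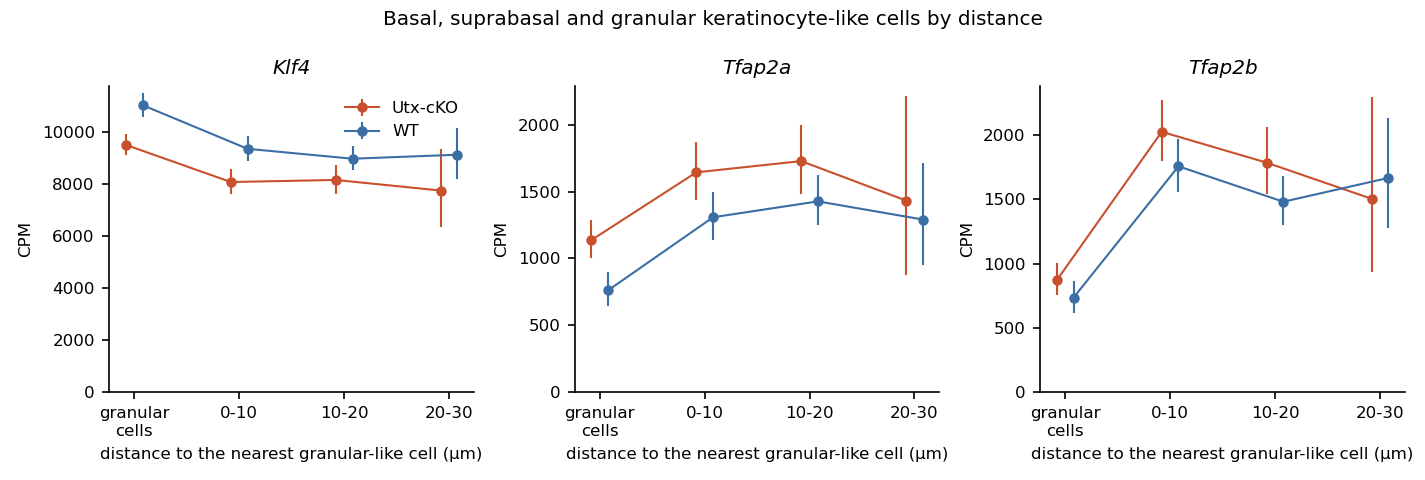
Level (CPM) of Klf4, Tfap2a and Tfap2b in granular keratinocyte-like cells and in basal and suprabasal keratinocyte-like cells by distance to the nearest granular cell (µm), Utx-cKO in orange and WT in blue, with exact 95% Poisson intervals. Klf4 is highest in the granular cells, and both AP-2 genes are lowest there.

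The question the design poses is which of these regulators differ without Kdm6a. Over all epithelial cells, 1 of the 4 genes, Elf3, was at least 1.5-fold higher in Utx-cKO, and none was 1.5-fold lower, where 12.5% of 439 panel genes were so much higher and 3.19% so much lower. The log2 ratios of Utx-cKO over WT were 1.46 (1.13 to 1.80) for Elf3, 0.37 (0.28 to 0.46) for Tfap2a, -0.18 (-0.25 to -0.11) for Tfap2b and -0.40 (-0.45 to -0.36) for Klf4. The clusters differed in their share of the cells summed: E5 made up 12.4% in Utx-cKO and 6.87% in WT, and sebocyte-like E6 8.95% and 5.18%. Weighting the clusters alike in Utx-cKO and WT gave ratios of 1.33 for Elf3, 0.37 for Tfap2a, -0.025 for Tfap2b and -0.23 for Klf4. The median of all 439 genes was 0.12. The share of decoded transcripts scoring at least 20 also differed between Utx-cKO and WT. It was 55.1% and 46.4% for Elf3 and 67.9% and 74.2% for Klf4. For Tfap2a it was 61.1% and 59.7%, and for Tfap2b 73.4% and 71.9%. Of gene transcripts at that score, 84.9% lay in cells in Utx-cKO and 74.7% in WT. The part of these differences in the ratios was not tested. In the sections the levels were 228 and 82.9 CPM for Elf3 in Utx-cKO and WT, 1786 and 1380.2 CPM for Tfap2a, 2455 and 2783 CPM for Tfap2b and 5979 and 7907 CPM for Klf4.

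The tissue on each slide lay in 4 connected strips, which are not replicates but show the spread within a section. Elf3 over epithelial cells had 325, 86.5, 232 and 181 CPM in the 4 strips of Utx-cKO, against 43.7, 93.8, 110.1 and 76.2 CPM in those of WT, so 3 strips of Utx-cKO lay above all of WT and strip 2 did not. Klf4 had 5861, 4676, 6185 and 6571 CPM in Utx-cKO, against 8036, 5700.1, 7959.7 and 8817 CPM in WT, and only WT strip 2 lay within the range of Utx-cKO. Tfap2a had 1820.0, 2468, 1606 and 1645 CPM in Utx-cKO, against 1133, 2056, 1139 and 1699.7 CPM in WT. Tfap2b had 1920.2, 3263, 2937 and 1765 CPM in Utx-cKO, against 2928, 2619, 2933 and 2461 CPM in WT. The strips overlapped between the sections for each of the 4 genes, and 3.42% of 439 panel genes had all strips of Utx-cKO above, and 3.87% below, those of WT. For each of the 4 genes the strips of at least 1 section differed by more than the sections did.

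Most of the Elf3 counts of the Utx-cKO epithelium lay in the upper follicle-like clusters. In E5 it had 924 CPM (95% interval 765 to 1107, 118 counts) in Utx-cKO, against 101 CPM (95% interval 40.7 to 209, 7 counts) in WT, a log2 ratio of 3.19 (2.10 to 4.54). Of 229 genes measured in E5, 18.8% were at least 1.5-fold higher in Utx-cKO. In E3 Elf3 had 467 CPM (95% interval 360.4 to 595, 65 counts) in Utx-cKO, against 167 CPM (95% interval 99.1 to 264, 18 counts) in WT, a log2 ratio of 1.48 (0.71 to 2.32). Both clusters together held 60.2% of the epithelial Elf3 counts of Utx-cKO and 24.5% of those of WT. Most cells with Elf3 held a single transcript: in E5 of Utx-cKO 100 cells had 1 and 9 had 2 or more, while in E5 of WT 7 cells had 1. By strip, E5 had 1264, 0, 771 and 943 CPM in Utx-cKO, against 0, 0, 180.5 and 142 CPM in WT, so strip 2 of Utx-cKO, with 222 cells in E5, held no Elf3 there.

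In the other epithelial cells Elf3 was at the level of 1 control probe. The panel carries 20 negative control probes, which match no transcript, and in epithelial cells other than E3 and E5 the highest of them had 126 CPM in Utx-cKO and 62.6 CPM in WT, beside 114 and 73.04 CPM of Elf3. That probe stood apart from the rest: the other 19 together had 137 CPM in Utx-cKO and 88.2 CPM in WT there. The log2 ratio there was 1.01 (0.57 to 1.45) for that probe, 0.64 (0.25 to 1.03) for the other 19 together and 0.64 (0.21 to 1.07) for Elf3. In E5 the same probe had 70.5 CPM in Utx-cKO and 101 CPM in WT, and the other 19 together 282 CPM in Utx-cKO (36 counts) and 86.8 CPM in WT (6 counts). Elf3 in E5 of Utx-cKO was therefore well above every control probe, and Elf3 in WT E5 was at the level of the highest control probe. In non-epithelial cells Elf3 had 172 CPM in Utx-cKO and 103 CPM in WT, above the 29.5 and 21.7 CPM of the same probe. Over epithelial cells control probe signal was higher in Utx-cKO, and its part in the Elf3 ratio over all epithelial cells was not tested.

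**Figure D3:**
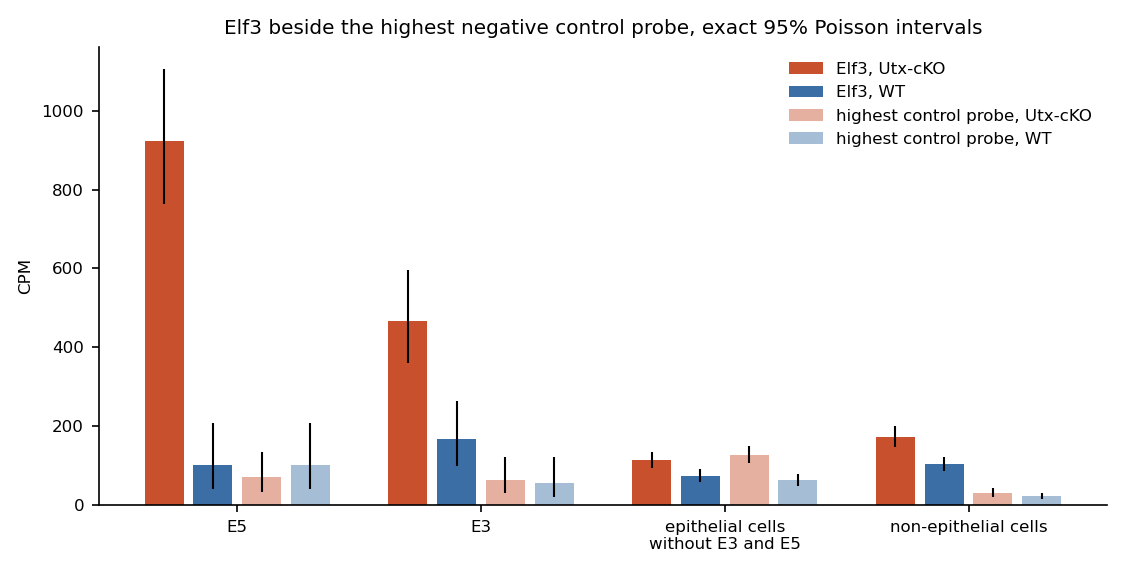
Level (CPM) of Elf3 (full colour) and of the highest negative control probe (pale) in E5, in E3, in the other epithelial cells and in non-epithelial cells, Utx-cKO in orange and WT in blue, with exact 95% Poisson intervals. Elf3 clears the probe in E5 and E3 of Utx-cKO and in non-epithelial cells of both sections, has 18 counts against 6 for the probe in E3 of WT, and lies at its level in E5 of WT and in the other epithelial cells of both sections.

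**Figure D4:**
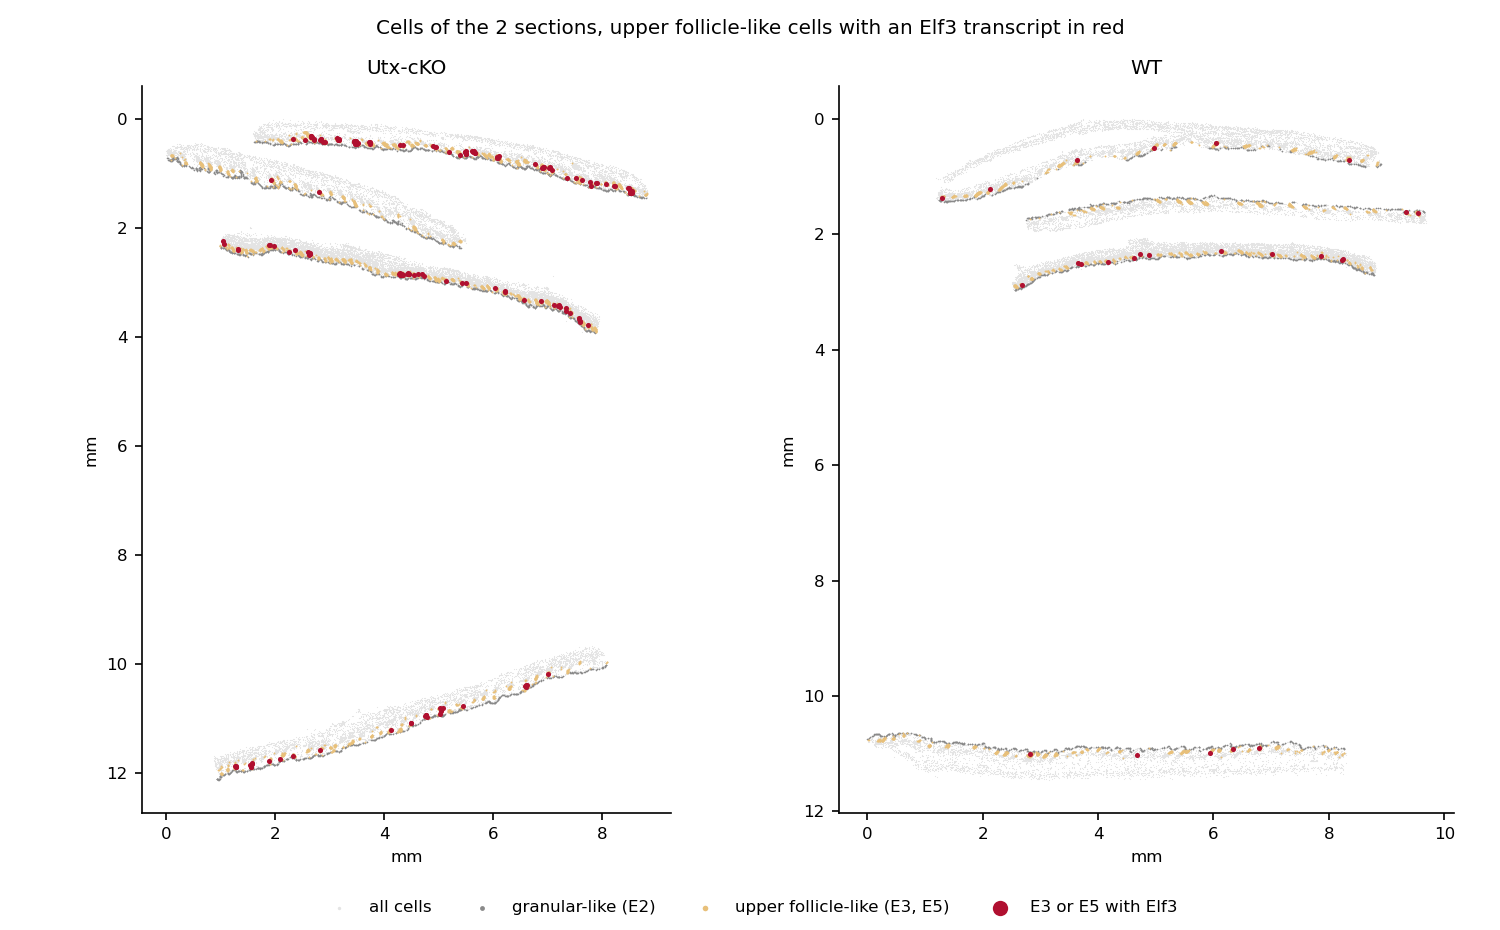
Positions of the cells in the 2 sections (mm), all cells in light grey, granular keratinocyte-like cells in dark grey, upper follicle-like cells (E3 and E5) in yellow and those with an Elf3 transcript in red. The red cells of Utx-cKO are spread along strips 1, 3 and 4 and are few in strip 2.

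Klf4 had the opposite sign in most of the epithelium. Among the 11 epithelial clusters, all with at least 100 counts, its log2 ratio was below 0 in 10, with intervals below 0 in 8. The exception was E9, with 0.27 (0.02 to 0.53). It was at least 1.5-fold lower in 2 clusters: sebocyte-like cells, with 624 CPM in Utx-cKO and 1263 CPM in WT and a log2 ratio of -1.02 (-1.42 to -0.62), and E7, with -0.62 (-0.95 to -0.28). In cells thinned to 20 transcripts the ratio was -0.69 in E6, with an interval that held 0, -0.46 in E7, no longer past 1.5-fold, and -0.75 in E10, which then passed 1.5-fold. In all transcripts, genes at least 1.5-fold lower made up 21.1% of those measured in E6 and 15.2% in E7. Upper follicle-like E5 had -0.57 (-0.73 to -0.42), E10 -0.57 (-0.82 to -0.31) and upper follicle-like E3 -0.55 (-0.71 to -0.38). The ratio was nearer 0 in the epidermal layers, with -0.25 (-0.38 to -0.12) in basal, -0.22 (-0.30 to -0.13) in granular and -0.12 (-0.22 to -0.03) in suprabasal cells, and lower follicle-like cells had -0.02 (-0.14 to 0.09).

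In E5 Klf4 had 4931, 5815, 6190.4 and 6288 CPM in the strips of Utx-cKO, against 10131, 6556, 7906 and 9359.7 CPM in those of WT. Each strip of Utx-cKO lay below each of WT, which held for 4.8% of the genes measured in E5. In E10 it had 4426, 4597, 5670.2 and 5765 CPM in Utx-cKO, against 7628, 7476, 7776 and 7519 CPM in WT, again without overlap, as for 2.27% of genes there. In every other epithelial cluster the Klf4 strips overlapped between the sections, including E6 and E7, the clusters past 1.5-fold. Strips of E6 ranged from 355 to 955 CPM in Utx-cKO and from 426 to 2181 CPM in WT. Those of E7 ranged from 409 to 1598 CPM in Utx-cKO and from 1100 to 2408 CPM in WT. In E5 of Utx-cKO, Elf3 and Klf4 thus differed from WT in opposite directions within the same class of cells.

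The promoters of Elf3 and Klf4, with the highest and the lowest log2 ratio of the 4 genes over epithelial cells, are shown for reference. Outside the epithelium the highest ratio was that of Tfap2a. The bases are the 250 before the annotated start in RefSeq (GRCm38.p6), 5′ to 3′ on the gene's strand, at chr1:135258473-135258722, minus strand, for Elf3 and chr4:55532476-55532725, minus strand, for Klf4. Capitals mark matches on either strand to the motifs of the 3 families the 4 factors belong to: GCCNNNGGC for AP-2, CACCC for KLF and GGAAG for ETS.
Elf3: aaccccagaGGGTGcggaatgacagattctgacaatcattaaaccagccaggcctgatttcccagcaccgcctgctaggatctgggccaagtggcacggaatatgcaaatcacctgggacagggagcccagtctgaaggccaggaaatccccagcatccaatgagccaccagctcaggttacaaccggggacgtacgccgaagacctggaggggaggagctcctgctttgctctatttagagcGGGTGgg
Klf4: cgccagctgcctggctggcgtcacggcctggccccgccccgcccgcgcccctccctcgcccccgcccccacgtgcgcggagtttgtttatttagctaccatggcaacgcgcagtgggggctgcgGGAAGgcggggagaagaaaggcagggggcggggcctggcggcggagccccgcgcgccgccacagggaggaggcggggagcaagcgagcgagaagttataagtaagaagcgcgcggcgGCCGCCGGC
The Elf3 window holds 2 KLF matches, of which 1 begins 7 bases before the start, and none of the AP-2 or ETS letters. The Klf4 window holds 1 AP-2 match, 9 bases before the start, and 1 ETS match. No matches overlap. Of 32851 such windows in RefSeq, 13.7% hold the AP-2 motif, 52.01% the KLF motif and 64.1% the ETS motif. The KLF and ETS matches are thus common and the AP-2 match less so, and all describe the letters only.

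Tfap2a had a log2 ratio above 0 in all 11 epithelial clusters, from 0.15 in suprabasal cells to 0.65 in E10, with intervals above 0 in 9. It passed 1.5-fold in E10, with 63 counts in Utx-cKO and 45 in WT, where 6.06% of genes did. In cells thinned to 20 transcripts it passed in E10 (1.30), E6 (1.05) and E2 (0.62, with an interval that held 0), and E8 had 0.042. Granular cells had 0.58 (0.28 to 0.89) and basal cells 0.41 (0.12 to 0.70). Its strips overlapped between the sections in every epithelial cluster, so the common sign rests on levels that also moved from strip to strip: in granular cells they were 1049, 1464, 1258 and 932 CPM in Utx-cKO, against 588, 1475, 493 and 912 CPM in WT.

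Tfap2b did not have 1 sign across the epithelium. Of the 3 clusters in which it was highest, it was lower in Utx-cKO in E8 and E0: 7834 CPM in Utx-cKO and 11273 CPM in WT in E8, a log2 ratio of -0.53 (-0.70 to -0.35), and -0.19 (-0.32 to -0.06) in lower follicle-like cells. It was higher in the third, E9, with 0.45 (0.21 to 0.70), in E7, with 0.48 (0.05 to 0.93), in suprabasal cells, with 0.30 (0.07 to 0.53), and in upper follicle-like E3, with 0.30 (0.01 to 0.59). In the other 5 clusters the interval held 0. In cells thinned to 20 transcripts each, the suprabasal ratio was -0.058, on the other side of 0. No epithelial cluster passed 1.5-fold for Tfap2b in all transcripts, but E5 and E2 did in the thinned cells, with 1.99 and 0.71, of which the interval of E2 held 0. In E8 the strips held 4969, 9754, 9671 and 6225 CPM in Utx-cKO, against 10364, 8982, 13161 and 9905 CPM in WT, and they overlapped.

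**Figure D5:**
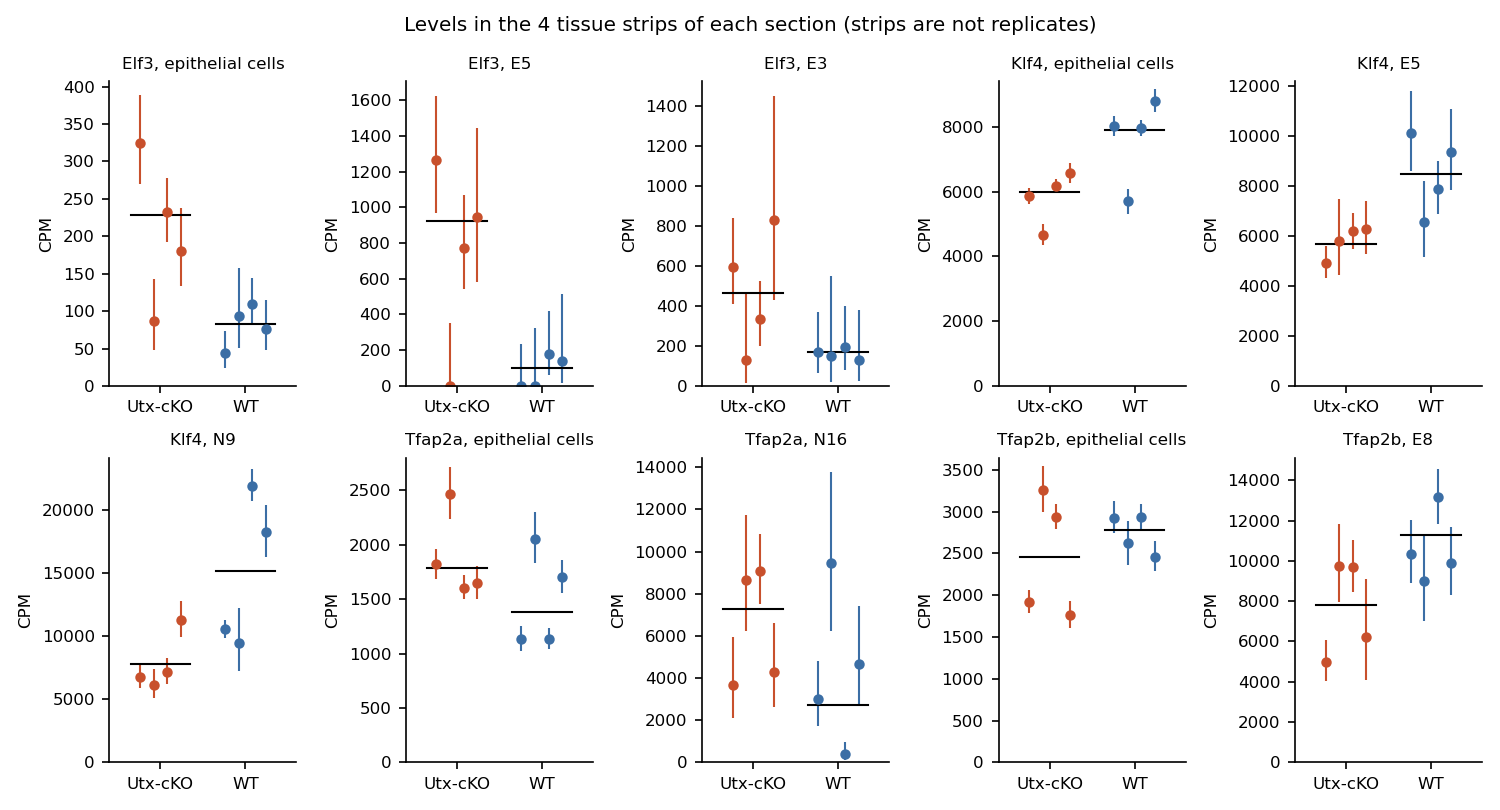
Level (CPM) in each of the 4 strips of Utx-cKO (orange, strips 1 to 4 from the left) and of WT (blue), with exact 95% Poisson intervals, for the 4 genes in epithelial cells and in selected clusters. Black lines give the whole section. Strips overlap between the sections in every panel except Klf4 in E5.

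Outside the epithelium, the log2 ratios were 0.73 (0.40 to 1.07) for Elf3, 1.33 (1.05 to 1.60) for Tfap2a, 0.77 (0.54 to 0.99) for Tfap2b and -0.51 (-0.56 to -0.45) for Klf4. The first 3 passed 1.5-fold, as 22.7% of 450 panel genes did, while 2% were that much lower. The median log2 ratio of these 450 genes was 0.22, so the panel as a whole was shifted upward. The ratios given here are not centred on that median. In the same cells the ratio was 0.44 (-0.36 to 1.24) for the highest control probe. It was 0.63 (0.20 to 1.06) for the other control probes together, and the part of control probe signal in the Elf3 ratio was not tested. Of the Tfap2a counts outside the epithelium, the cluster N16, described below, held 196 of 306 in Utx-cKO and 67 of 172 in WT. Klf4 was lower in Utx-cKO in each of the 8 clusters with at least 100 counts, with every interval below 0. The largest difference was in the fibroblast-like cluster N9, led by Sfrp2, Ptgs2 and Fn1, with 7756 CPM in Utx-cKO and 15138 CPM in WT, a log2 ratio of -0.96 (-1.08 to -0.85). It passed 1.5-fold there and in N10 (Slc16a3, Cryab), with -0.59 (-0.81 to -0.37), where 2.11% and 7% of genes were that much lower in N9 and N10. The strips of N9 held 6740.2, 6159.5, 7163 and 11281 CPM in Utx-cKO, against 10567, 9473, 21886 and 18234 CPM in WT, and overlapped through strip 4 of Utx-cKO and strips 1 and 2 of WT. Klf4 was thus lower in Utx-cKO also in clusters that were not called epithelial.

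Tfap2a had a second site outside the called epithelium. The cluster N16, led by Lef1, Inhba and Igfbp3 and not named by its markers, had 7276 CPM (95% interval 6293 to 8369, 196 counts) in Utx-cKO, against 2718 CPM (95% interval 2107 to 3452, 67 counts) in WT. Within each section this was the highest level of Tfap2a in any cluster. In WT its interval overlapped those of E9 (2057 to 3027) and E3 (1609 to 2134). The log2 ratio in N16 was 1.42 (1.01 to 1.84), where 9% of 100 genes were at least 1.5-fold higher. Its strips held 3655, 8669, 9056 and 4269.9 CPM in Utx-cKO, against 2989, 9454, 408 and 4689.9 CPM in WT, so the groups overlapped, and strip 3 of WT, with 137 of its 333 cells, held 5 counts. Tfap2b in N16 was 408 CPM in Utx-cKO and 527 CPM in WT, and keratinocyte markers made up 3.90% of its counts. Tfap2b passed 1.5-fold in macrophage-like cells, with 406 and 189 CPM in Utx-cKO and WT and 21.1% of genes that much higher, and in N2, a fibroblast-like cluster, with 504 and 319.9 CPM and 10.1% of genes. For Elf3 the Kit, Gata2 and Il17a cluster N15 with a keratinocyte marker share of 5.94%, just under the 6% that called a cluster epithelial, had 992 CPM (95% interval 567 to 1612, 16 counts) in Utx-cKO, against 285 CPM (95% interval 34.5 to 1028, 2 counts) in WT, in cells of low depth (median 25 and 26 transcripts in Utx-cKO and WT).

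Co-detection with barrier genes was read in epithelial cells thinned to 20 transcripts each, since deeper cells hold more of every gene. Thinned in this way, Elf3 was seen in 0.533% (0.434% to 0.648%) of epithelial cells in Utx-cKO and 0.206% (0.139% to 0.294%) in WT, beside 0.452% (0.263% to 0.722%) and 0.399% (0.213% to 0.682%) of macrophage-like cells in Utx-cKO and WT. Median depths before thinning were 57 and 70 transcripts in epithelial cells and 36 and 51 in macrophage-like cells of Utx-cKO and WT, and unthinned shares with Elf3 were 1.54% and 0.700% in epithelial cells. The epithelial share of WT was thus no higher than that of macrophage-like cells. It is read neither as expression nor as its absence, since macrophage-like cells are not a blank. Elf3 in non-epithelial cells of WT, which include them, had 103 CPM against 21.7 CPM for the highest control probe. In E5 of Utx-cKO the share with Elf3 was 1.90% (1.38% to 2.54%), above that of WT epithelial cells and of macrophage-like cells. Tfap2a was seen in 4.13% (3.85% to 4.42%) of epithelial cells in Utx-cKO and 3.08% (2.81% to 3.37%) in WT, beside 0.345% (0.184% to 0.590%) and 0.154% (0.0499% to 0.358%) of macrophage-like cells. Tfap2b was seen in 4.95% (4.64% to 5.27%) in Utx-cKO and 5.67% (5.30% to 6.06%) in WT, beside 0.983% (0.693% to 1.35%) and 0.645% (0.400% to 0.985%) of macrophage-like cells. Klf4, which macrophages and fibroblasts also express, was seen in 10.5% (10.04% to 10.9%) of epithelial cells in Utx-cKO and 13.96% (13.4% to 14.5%) in WT.

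In Utx-cKO, Elf3 was found more often in cells that held a cornified envelope gene, with intervals that did not overlap. It was seen in 67 of 9085 cells (0.737%, 95% interval 0.572% to 0.936%) with any of 24 envelope genes in Utx-cKO, against 33 of 9661 (0.342%, 0.235% to 0.479%) without one. In WT the shares were 16 of 6974 cells (0.229%, 95% interval 0.131% to 0.372%) with and 14 of 7598 (0.184%, 0.101% to 0.309%) without, whose intervals overlapped. Sprr2 genes encode small proline-rich proteins of the envelope. In Utx-cKO, 21 of 1360 cells (1.54%, 95% interval 0.958% to 2.35%) with Sprr2a1 held Elf3, against 79 of 17386 (0.454%, 0.360% to 0.566%) without. In WT, 1 of 574 cells with Sprr2a1 did. Of the 36 barrier genes with at least 200 counts, 18 had a ratio of shares above 1 and 18 below 1 over both sections, and in WT 11 were above and 25 below. Only 30 thinned epithelial cells of WT held Elf3, so the WT tally is too sparse to show that Elf3 and barrier genes avoid each other. Sprr2e, Sprr2i, Sprr2a1, Sprr2a2 and Sprr2d had the highest ratio of shares over both sections, although Sprr2e, Sprr2i and Sprr2d rest on 1 or 2 cells with both. No cell held Elf3 with Tgm3, but only 223 cells held Tgm3, too few to read this as absence. Within E5 of Utx-cKO the share with Elf3 was 36 of 1781 cells (2.02%, 95% interval 1.42% to 2.79%) with an envelope gene and 8 of 537 (1.49%, 0.645% to 2.91%) without, with overlapping intervals.

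Within E5 of Utx-cKO, 109 cells with Elf3 were set beside 2209 without. Sprr2a1 had 23111 CPM in cells with Elf3 and 10975 CPM in cells without, a log2 ratio of 1.07 (0.84 to 1.30), and Sprr2a2 and Sprr2a3 had ratios of 1.14 (0.87 to 1.41) and 1.28 (0.82 to 1.72). Flg2 had 9940.4 CPM with and 16187 CPM without, and Lor 497 CPM with (4 counts) and 3421 CPM without. These genes were chosen after their values were seen. Cells with Elf3 were deeper, with a median of 59 transcripts against 44, and lay a median of 66.3 µm from a granular cell, against 56.98 µm. By strip, Sprr2a1 had 40939 CPM with and 22122 CPM without Elf3 in strip 1, 18099.5 and 8838 CPM in strip 4, but 2789.8 and 2945 CPM in strip 3. The Sprr2a1 excess was not seen in strip 3, where 34 cells of E5 held Elf3. Sprr2a2 had 32073 CPM with and 16361 CPM without Elf3 in strip 1, 7239.8 and 5199 CPM in strip 4, and 929.9 and 1266 CPM in strip 3. Sprr2a3 rests on strip 1, which held 46 of its 49 counts with Elf3: it had 1810.0 CPM with and 1749 CPM without in strip 4. In E3 of Utx-cKO, over 60 cells with Elf3, Sprr2a1 had a ratio of 0.24 (-0.50 to 0.90), and Flg2 had 1.12 (0.19 to 1.93), the opposite sign to E5. These cells share a section and are no replicates.

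Klf4 was seen more often in cells with an envelope gene in both sections. It was seen in 1063 of 9085 cells (11.7%, 95% interval 11.05% to 12.4%) with an envelope gene in Utx-cKO, against 901 of 9661 (9.33%, 8.75% to 9.92%) without, and in 1054 of 6974 cells (15.1%, 95% interval 14.3% to 15.98%) with one in WT, against 980 of 7598 (12.9%, 12.2% to 13.7%) without. Its ratio of shares over both sections was above 1 for 20 of 36 barrier genes and below 1 for 16. The highest ratios were with Alox12b, a lipoxygenase of barrier lipid synthesis, Lor, Hrnr, Tgm1, the transglutaminase that cross-links the envelope, and Lce1m. The intervals with and without overlapped for Alox12b in Utx-cKO and for Tgm1 and Lce1m in WT. Lor, which encodes loricrin, had Klf4 in 208 of 1362 cells (15.3%, 95% interval 13.4% to 17.3%) in Utx-cKO and in 258 of 1404 cells (18.4%, 95% interval 16.4% to 20.5%) in WT, against 10.1% and 13.5% of cells without Lor. The lowest was with Fa2h, a fatty acid hydroxylase among the leading genes of sebocyte-like cells, where Klf4 was seen in 6 of 582 cells (1.03%, 95% interval 0.379% to 2.23%) in Utx-cKO and 7 of 280 cells (2.50%, 95% interval 1.01% to 5.08%) in WT. Within granular cells Klf4 was seen in 15.5% of cells with and 15.1% without an envelope gene in Utx-cKO and in 18.5% and 21.2% in WT, so the association over the epithelium was not seen inside that class.

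In thinned cells the AP-2 genes were found less often where an envelope gene was seen. Tfap2b was seen in 308 of 9085 cells (3.39%, 95% interval 3.03% to 3.78%) with one in Utx-cKO, against 619 of 9661 (6.41%, 5.93% to 6.91%) without, and in 245 of 6974 cells (3.51%, 95% interval 3.09% to 3.97%) with one in WT, against 581 of 7598 (7.65%, 7.06% to 8.27%) without. Its ratio of shares over both sections was below 1 for each of the 36 barrier genes, among the highest with Them5, Cdsn, Tgm3 and Sprr2h and lowest with Alox12b, where 1 of 223 cells held both. Tfap2a was seen in 3.39% of cells with and 4.82% without an envelope gene in Utx-cKO, and in 2.74% and 3.40% in WT. Without thinning this order turned, with a ratio of shares of 1.02 in Utx-cKO and 1.13 in WT. For the thinned cells the ratio was below 1 for 27 of 36 barrier genes and highest with Sprr1b, Cers3, Sprr2e, Elovl7 and Smpd1, and no cell held it with Lce1f. In WT, Tfap2b was seen more often in cells with Tfap2a than in cells without it, in 41 of 449 cells (9.13%, 95% interval 6.63% to 12.2%) with Tfap2a and 5.56% without. In Utx-cKO it was seen in 31 of 774 cells (4.01%, 95% interval 2.74% to 5.64%) with Tfap2a and 4.99% without. The difference between the sections was not tested.

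Other genes of the pathway were read in the same epithelial cells, from lists by function. Of 22 measured cornified envelope and keratohyalin genes, 8 were at least 1.5-fold higher in Utx-cKO, all of them Sprr genes, and 2 lower, where 12.5% of all 439 genes were higher and 3.19% lower, with a median log2 ratio of 0.26 beside 0.12 for all genes. The highest were Sprr2a2 (2587 CPM in Utx-cKO and 1034 CPM in WT), Sprr2a3 (1.28 on the log2 scale) and Sprr1b (1.18), and the lowest Tgm3 (198 CPM in Utx-cKO and 577 CPM in WT), a transglutaminase, Hrnr (-0.63) and Flg2 (-0.43). The 3 Sprr2a genes are near-identical copies, so their transcripts may be shared between their probes. These list ratios were not weighted by cluster, and E5, led by Sprr1a, made up 12.4% of epithelial cells in Utx-cKO and 6.87% in WT. Sprr2a1 also varied by strip: E5 cells without Elf3 had 22122, 1335, 2945 and 8838 CPM in strips 1 to 4 of Utx-cKO. Of 14 barrier lipid genes 2 were higher, Fa2h (0.96) and Elovl4 (0.91), which also led the sebocyte-like cluster, and 2 lower, Aloxe3 (-0.69) and Them5 (-0.65), while Elovl7 had 0.42 and Alox12b -0.50. None of 10 spinous layer genes passed 1.5-fold, from Krt77 at -0.30, Dsg1a at -0.27 and Dsc1 at -0.16 to Calm5 at 0.14, Notch1 at 0.18 and Krt1 at 0.46. None of 8 junction genes did either, from Dsg3 at -0.50 and Cldn1 at -0.49 to Cldn4 at 0.10 and Gjb6 at 0.23. Among 27 other epithelial transcription and chromatin factors, Pparg, the adipocyte and sebocyte receptor, passed 1.5-fold upward (0.72) and Irf4 downward (-0.63), and Atf3 (0.49), Gata6 (0.44) and Kmt2a (-0.26) did not.

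Across the 40 points given by 20 clusters in 2 sections, the AP-2 pair had the most similar patterns among the 4 genes. As a description over points that share sections and depth, Pearson correlations of log2(CPM + 10) were 0.80 between Tfap2a and Tfap2b, 0.20 between Klf4 and Tfap2a and -0.02 between Elf3 and Klf4. Over the 22 points of the epithelial clusters alone they were 0.55, -0.01 and 0.03, and that of Elf3 with Tfap2a was 0.45. The most similar genes also differ there, where only Gpx6 and Sprr2e (for Elf3) and Them5 (for Klf4) of the genes below were among the first 5. Over all clusters, the genes most like each were Krt5, Krt15 and Dsg3 for Tfap2b (0.90, 0.89 and 0.88), Sdc1, Trim29 and Cxadr for Tfap2a (0.89, 0.87 and 0.85), Anxa1, Them5 and Sec14l2 for Klf4 (0.80, 0.67 and 0.66), and Gpx6, Sprr2e and Ccl20 for Elf3 (0.74, 0.73 and 0.70).

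Pooled over epithelial clusters, the 4 transcripts also differed in the share that lay over the nucleus. In epithelial cells the share over the nucleus was 66.8% in Utx-cKO and 72.5% in WT for Elf3, 63.9% and 62.8% for Tfap2b, 57.2% and 56.1% for Tfap2a, and 52.2% and 49.1% for Klf4. All panel transcripts together had 48.2% over the nucleus in Utx-cKO and 48.5% in WT. By cluster of Utx-cKO this share of all genes ran from 36.3% in E7 to 60.1% in E9, so the pooled shares also reflect the clusters. In E0 of Utx-cKO Klf4 and Tfap2a both had 56.6%, beside 56.3% for all genes. In E6 of Utx-cKO they had 52.3% and 63.8%, beside 40.5%. Elf3 in Utx-cKO had 53.8% in E3, beside 59.9% for all genes, and 61.9% in E5, beside 52.9%. In non-epithelial cells Elf3 had 84.05% over the nucleus in Utx-cKO and 81.9% in WT. For each of the 4 genes the sections were within 5.77 percentage points of each other in epithelial cells, and the intervals of the sections were apart for Klf4 and overlapped for the other 3.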

How the data were processed

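One section of Utx-cKO and 1 of WT skin were imaged with a panel of 480 genes, per the labels. The deposited tables list each decoded transcript with its position and a quality score (at most 40), and counts of transcripts and control probes per segmented cell. The decoding and segmentation software was not given in the sources used here. Only transcripts scoring 20 or more were counted, in cells holding 20 or more. Transcripts in cells numbered 2442196 in Utx-cKO and 2645045 in WT. Counts were scaled to CPM, and the sections were clustered without the 4 genes (30 components, 15 neighbours, leidenalg 0.10.2, resolution 1), all cells first and then the epithelial ones, those of clusters in which keratinocyte markers were at least 6% of counts. A cluster was named from at least 3 markers among its 10 leading genes. No doublet caller was run, and 2 cell names were shared between the sections. Intervals are exact Poisson, conditional binomial or Clopper-Pearson intervals from scipy 1.17.1 and cover counting error only. A gene was called past 1.5-fold with at least 200 counts over both sections (100 within a cluster). Strips are tissue areas with cells linked within 100 µm and at least 1000 cells. The genes and lists were chosen with earlier results of these data known. Named besides the 4 genes are Kdm6a, the 3 highest and 3 lowest ratios of each list, other factors past 1.5-fold, the 3 most correlated genes per member, and the 5 highest and the lowest barrier gene in co-detection, of which 1 is not reported here. The alternatives were score, nuclear transcripts, cell minimum, scaling, centring, cluster shares, epithelial calls, resolution, genes clustered, strips left out, thinning and gene minimum. The interval script was tested on simulated data.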

Additional observations from a re-analysis of the deposited data

How the results depend on the processing

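The epithelial log2 ratio of Elf3 (Utx-cKO over WT) stayed above 1.5-fold under each of 21 alternatives, at 0.64 to 1.79, the lowest being 0.64 without E3 and E5, an alternative chosen after seeing the data. In the cells without E3 and E5, the ratio was 1.01 (0.57 to 1.45) for the highest control probe. It was 0.64 (0.25 to 1.03) for the other control probes together. Elf3 was at the level of the highest probe there, so its 0.64 is not read as a difference beyond control probe signal. Leaving out each strip in turn gave 1.21 to 1.79 for Elf3, -0.46 to -0.35 for Klf4, 0.22 to 0.48 for Tfap2a and -0.37 to -0.066 for Tfap2b. With a score of at least 30, Klf4 had -0.20 and Tfap2a 0.24, and over nuclei alone Klf4 had -0.31. As mean counts per cell, Klf4 had -0.65, past 1.5-fold, Tfap2a 0.12 and Tfap2b -0.43. With the total taken without the 10 most abundant genes, Klf4 had -0.48 and Tfap2b -0.26. Centring on the median of all genes gave -0.52 for Klf4, 0.25 for Tfap2a and -0.30 for Tfap2b. With each epithelial cluster at the same share, Klf4 had -0.23 and Tfap2b -0.025, and with cells called by their own markers Klf4 had -0.36. The granular over basal log2 ratio as mean counts per cell was 1.11 in Utx-cKO and 1.09 in WT for Klf4, -0.049 and -0.20 for Tfap2a, and -0.63 and -0.76 for Tfap2b. Over nuclei alone, Klf4 had 0.57 in Utx-cKO. In cells of at least 40 transcripts, Tfap2a had -1.63 in Utx-cKO, and Tfap2b -2.33 in Utx-cKO and -2.62 in WT. At resolution 0.5, Klf4 had 0.14 in Utx-cKO, Tfap2a -1.27 in WT, and Tfap2b -2.96 in Utx-cKO and -3.44 in WT, where no cluster was named basal and the cluster with the highest basal marker share stood in. At resolution 2, Tfap2a had -1.87 in Utx-cKO, and Tfap2b -2.63 in Utx-cKO and -3.06 in WT. Clustering with all genes gave -2.02 for Tfap2b in WT. The ratio of shares with over without an envelope gene in unthinned cells was 1.76 in Utx-cKO and 1.55 in WT for Klf4, 1.02 and 1.13 for Tfap2a, and 0.82 and 0.75 for Tfap2b, and in cells thinned to 40 it was 1.38 for Klf4 in Utx-cKO. The cause of these shifts was not tested. Elf3 in WT is limited by its 102 epithelial counts. No paired analysis was possible because each group has 1 section.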
